A study of Rattus norvegicus with 35 samples.

Results

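The genes described here encode the proteins of the cytosolic ribosome, measured in the livers of 35 rats. A gene was taken when a probe set named it alone and its symbol was Rpl or Rps followed by a number, with an isoform letter or paralog suffix allowed, or was Rplp0, Rplp1, Rplp2 or Rpsa. This gave 48 of 14217 genes, 33 of the large and 15 of the small subunit, of which 5 are paralogs by their symbol (Rpl39l1, Rpl3l, Rpl26l1, Rps27l and Rpl7l1). Kinases named after Rps6 and pseudogenes did not qualify. Where a gene had several probe sets, the set with the highest mean signal stood for it. The rule used gene names alone and no dose effect.

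All animals were male Sprague Dawley rats (Harlan), 7 weeks old at the start, dosed by oral gavage for 5 days with corn oil alone (vehicle, 6 rats) or with the brominated flame retardant 1,2-bis(tribromophenoxy)ethane (BTBPE) in corn oil at doses of 680, 68, 6.88, 0.69 and 0.07 mg/kg. Each dose group held 6 rats, except 68 mg/kg, which held 5. The left lobe was taken 1 day after the last dose, and RNA below an integrity number of 7.0 was not put onto the 3′ expression arrays, 1 array per rat. Values are log2 RMA signals as deposited, so that a difference of 1 is 2-fold. The tissue label was borne out by 8 measured hepatocyte markers, whose mean signals lay between 12.73 and 14.39. Liver RNA comes from a mixture of cells, so fewer cells of a type and less RNA per cell cannot be told apart.

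Ribosomal proteins assemble with ribosomal RNA in the nucleolus into a small subunit, which reads the message, and a large subunit, which forms the peptide bond. Many of their messages begin with a cytosine followed by a run of pyrimidines, the terminal oligopyrimidine (TOP) tract, through which the mTOR pathway and the RNA-binding protein Larp1 set their translation. In liver, ribosome content is known to follow feeding and growth signals.

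The start sites of these genes carry that tract more often than those of other genes. RefSeq start sites on the rat build GRCr8 were found for 41 of the 48 genes, and 17 of the 41 (41.5%) had a C followed by at least 6 further pyrimidines (C or T) on the sense strand, beginning within 5 bases of the annotated start. Among all 27457 annotated promoters 6.15% had one. The windows below run from 10 bases before the start to 20 after it, 5′ to 3′ on the gene's strand, with the tract in capitals. The first 6 are examples of genes with a tract whose signals are named further on. Other genes named further on, such as Rps6 and Rpl5, have none, so these 6 do not show how common it is. The last 3 have no such tract beginning within 5 bases of the start. They belong to a gene in step with the family and to the paralogs Rps27l and Rpl3l.
Rpl27a (chr1:172974563-172974592, plus strand): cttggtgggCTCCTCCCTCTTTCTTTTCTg
Rps23 (chr2:23814507-23814536, plus strand): ccttcctgCCTCTCTTCTCTCTTTCTCTCg
Rplp0 (chr12:46718371-46718400, minus strand): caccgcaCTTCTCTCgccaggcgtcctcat
Rpl4 (chr8:73566467-73566496, plus strand): tcttcCTTTTCCTgtgggagcagccgggta
Rps24 (chr16:96507-96536, plus strand): ggtcctCTTTTCCTCCTTTacagctcgggc
Rpl35a (chr11:81235002-81235031, minus strand): tcttgCCTTCCTCTTTCCgccatcttggcg
Rpl26 (chr10:54109682-54109711, plus strand): gtcaacttacagaaccggaagtcgcatgta
Rps27l (chr8:76443648-76443677, plus strand): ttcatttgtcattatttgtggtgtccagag
Rpl3l (chr10:14258436-14258465, plus strand): ctggtgcctggtggggaggtcccttcctaa
In the window from 250 bases before to 50 after the start, CCGGAAG, the core of the ETS-family motif, stood on either strand in 24.4% of the 41 promoters and in 9.22% of all. AAGATGGC, a core of the YY1 motif, stood on either strand in 9.76% against 3.44%. These are matches of letters to annotated starts and show no bound factor.

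Signals fell into a bright and a dim set with nothing between 8.48 and 10.70. Bright probe sets, with a mean above 10, numbered 38. Their median mean signal was 11.91, and every one lay at or above the 96.2 percentile of genes. The cut at 10 was drawn at this gap after the values were seen. Rps29, a small-subunit protein, had the highest mean (12.82), followed by Rpl26 (12.56), Rpl27a (12.55) and Rps23 (12.53), the last a protein of the decoding centre. Signals of different probe sets do not rank transcript abundance, because hybridisation differs between probes.

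The 10 dim probe sets included all 5 paralogs. Rpl7l1, which acts in ribosome assembly, averaged 8.48, and Rps27l, a p53-induced copy of Rps27, averaged 7.96. Rps4y2, a copy of Rps4, averaged 7.41 and ranged widely between rats, from 6.60 to 7.96. Rpl39 (4.92) and Rpl26l1 (4.66) lay close to the array medians (4.71 to 4.79). Rpl3l, known from striated muscle, was at 3.26 and Rpl39l1, a copy of Rpl39, at 3.13.

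The core genes Rps13 (3.55), Rpl30 (3.43) and Rpl28 (2.73), all dim, are also named on probe sets that list several genes or pseudogenes, and there the signal was high. The shared probe set naming Rps13 averaged 11.82 and that naming Rpl28 averaged 11.49. Those naming Rpl30 averaged 11.71 and 11.39, the latter shared with Rps10. The shared sets also detect the other genes and pseudogenes they name, so neither reading gives the level of these 3 transcripts.

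**Figure D1:**
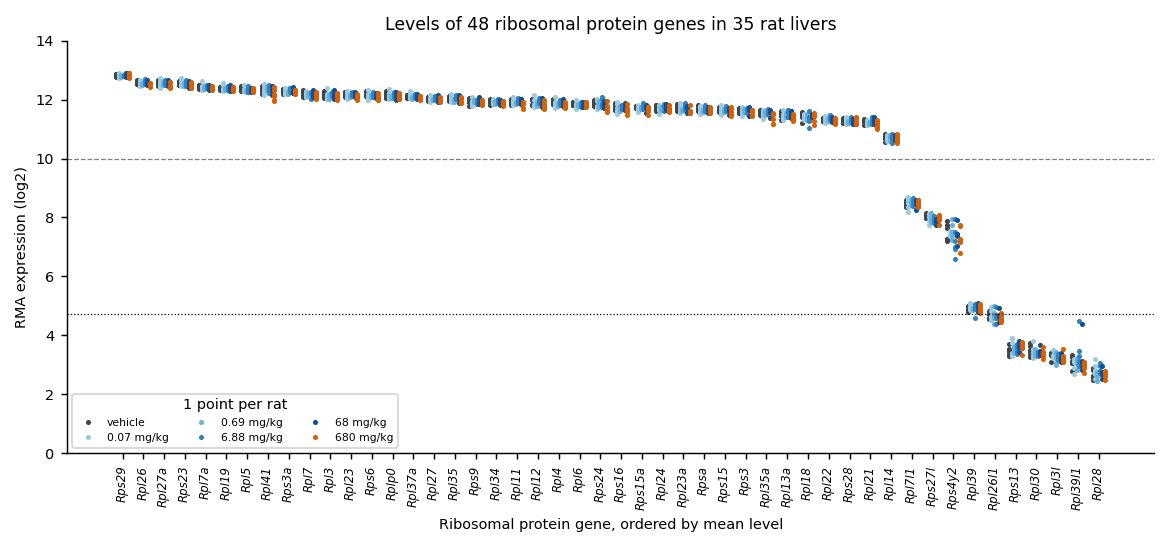
Log2 RMA signal (vertical axis) of each of the 48 ribosomal protein genes (horizontal axis, ordered by mean), 1 point per rat, coloured by dose group. The dashed line marks 10 and the dotted line marks the array medians; 38 genes lie above 10, and Rpl39l1 has 2 rats near 4.4, far above the rest.

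Bright large-subunit members differed little between groups. Rpl27a had a lowest, median and highest signal of 12.45, 12.55 and 12.65 in vehicle, 12.41, 12.53 and 12.72 at 0.07 mg/kg, 12.51, 12.54 and 12.58 at 0.69 mg/kg and 12.50, 12.57 and 12.67 at 6.88 mg/kg. The 5 rats at 68 mg/kg had Rpl27a signals of 12.46, 12.64, 12.52, 12.67 and 12.50, and those at 680 mg/kg had 12.39, 12.46 and 12.60. All groups overlapped, and the 0.69 mg/kg group was the narrowest. Rplp0, the base of the stalk that binds elongation factors, had 12.05, 12.15 and 12.28 in vehicle and 12.02, 12.09 and 12.21 at 680 mg/kg. Rpl5, which with Rpl11 and 5S ribosomal RNA forms the particle that binds Mdm2, had group means from 12.31 at 0.69 mg/kg to 12.37 in vehicle. Rpl11 had group means from 11.83 at 680 mg/kg to 11.95 at 6.88 mg/kg. Rpl3, near the peptide-forming centre, ran from 12.12 at 680 mg/kg to 12.19 at 6.88 mg/kg, and Rpl13a from 11.39 to 11.54 at the same doses.

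Bright small-subunit members had similarly close group values. Rps6, the protein phosphorylated by S6 kinase, had 12.12, 12.15 and 12.29 in vehicle and 11.99, 12.08 and 12.21 at 680 mg/kg. Rpsa, also known as a laminin receptor, had 11.62, 11.68 and 11.81 in vehicle and 11.55, 11.62 and 11.76 at 680 mg/kg. Rps3, at the entry of the message channel, had group means between 11.56 at 680 mg/kg and 11.65 at 68 and 6.88 mg/kg.

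Differences between rats of a group were small, and no smaller than for the other genes above 10, which were not matched for level. The median signal was 11.91 over the bright members and 10.92 over those genes. The within-group SD, pooled over the 6 groups, had a median of 0.0788 over the 38 bright members and 0.0782 over the other 838 genes above 10, and 18 of the 38 lay below the median of all 876. Rps29 (0.0509), Rpl26 (0.0580), Rpl34 (0.0594) and Rpl5 (0.0604) varied least. Rpl18 (0.120), Rpl41 (0.119), Rps24 (0.113) and Rps16 (0.108) varied most among the bright members. Rpl7l1 (0.125) and Rps4y2 (0.321) were wider still, and the 10 dim members had a median of 0.145.

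The small differences were shared across the family. After the group means were removed, all 703 pairs of bright members correlated above 0 over the 35 rats, with a median Pearson r of 0.74 and a range from 0.127 for Rps29 with Rpl18 to 0.935 for Rpl27 with Rpl12, a protein of the stalk base. Pairs of the other 838 genes above 10 had a median of 0.0269. Lists of related genes are set beside the family further on. They had no cut on level, and over all 48 members, also without a cut, the median was 0.63. The lists also varied together, though less closely. Their pairs had a median of 0.463 for ribosome biogenesis factors and 0.38 for translation factors and other TOP messages. The median was 0.302 for mitochondrial ribosomal proteins and 0.187 for regulators of the mTOR, Myc and stress pathways. The first principal component of the standardised values held 73.1% of the variance of the bright members and 13.7% of that of the other bright genes. Without a cut on level it held 59.3% over all 48 members and between 26.7% (regulators) and 50.5% (biogenesis factors) in the related lists. Subunit made little difference: the median was 0.751 within the large subunit, 0.712 within the small and 0.730 between them. All these pairs share the same 35 arrays and their normalisation, so the correlations are a description with no test.

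Rpl27a followed the mean of the other 47 members most closely (r = 0.937), then Rpl26 (0.929), Rpl12 (0.910), Rps6 (0.909), Rpl4 (0.900) and Rpl5 (0.896). Rpl4 lines the exit tunnel of the nascent chain. Over all 48 members the median pair correlation was 0.63. Rps13 (-0.271), Rpl39l1 (-0.238), Rps4y2 (-0.129) and Rpl26l1 (-0.109) had the lowest correlations with the other members, and pairs within the dim set had a median of 0.00453. Among bright members Rpl18 (0.520) and Rps29 (0.597) followed least.

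**Figure D2:**
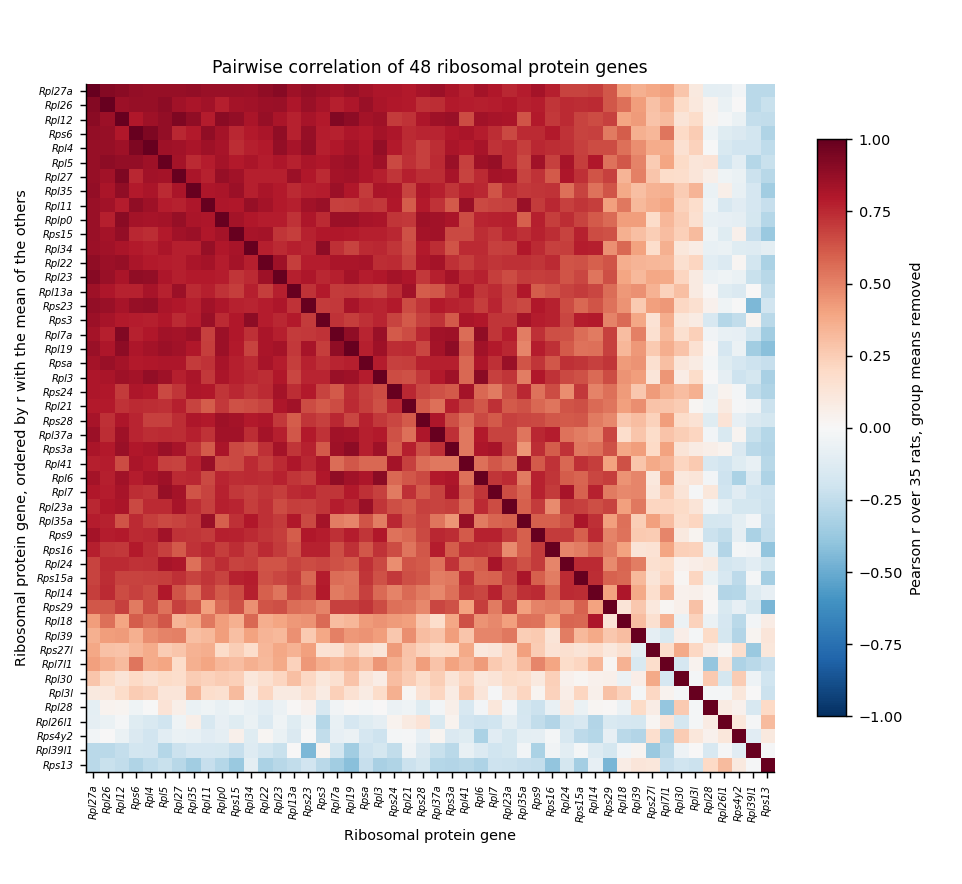
Pearson correlation between each pair of the 48 ribosomal protein genes over 35 rats with group means removed (colour, from -1 to 1), both axes ordered by correlation with the mean of the other members. The bright members form a red block with a median of 0.74; Rpl39 and the genes after it are pale.

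Probe sets shared with other genes or pseudogenes gave a second reading, looked at after the single-gene values were known. There were 36 such probe sets with a matching symbol, 33 of them above 10, and they included genes with no single-gene probe set, such as Rplp1 of the stalk. The correlations of these 33 with the mean of all 48 members ran from 0.64 to 0.929 with a median of 0.818. The dimmer shared sets, naming Rpl37l4, Rpl8l1 and Rpl36l2, had r of -0.292, 0.458 and 0.495. The shared probe set naming Rps13 had r = 0.75 and that naming Rpl28 had 0.79; the dim single-gene set of Rps13 had -0.271 with the other members.

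The shared deviation was read per rat, and with 1 array per rat a deviation of the animal and one of its array cannot be told apart. The mean deviation of the 38 bright members from their series means ran from -0.144 in replicate 4 at 680 mg/kg, where 0 of 38 members lay above their series mean, to 0.156 in replicate 1 at 0.07 mg/kg, where 38 of 38 did. The lowest and the highest rat thus differed 1.23-fold. The vehicle rats alone spanned -0.043 to 0.097, and their replicates 1 and 4 were the high ones.

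Rats at 0.69 mg/kg lay closest together, between -0.032 and 0.0032, with an SD of 0.0117 against 0.057 to 0.098 in the other groups. The group means were 0.021 ± 0.063 in vehicle, -0.0043 ± 0.098 at 0.07 mg/kg, -0.013 ± 0.012 at 0.69 mg/kg, 0.036 ± 0.057 at 6.88 mg/kg, 0.010 ± 0.077 at 68 mg/kg (n = 5) and -0.049 ± 0.075 at 680 mg/kg (SD, n = 6 elsewhere). At 680 mg/kg replicates 2 to 5 lay between -0.067 and -0.144, while replicates 1 and 6, at 0.044 and 0.037, were within the upper range of the vehicle rats.

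**Figure D3:**
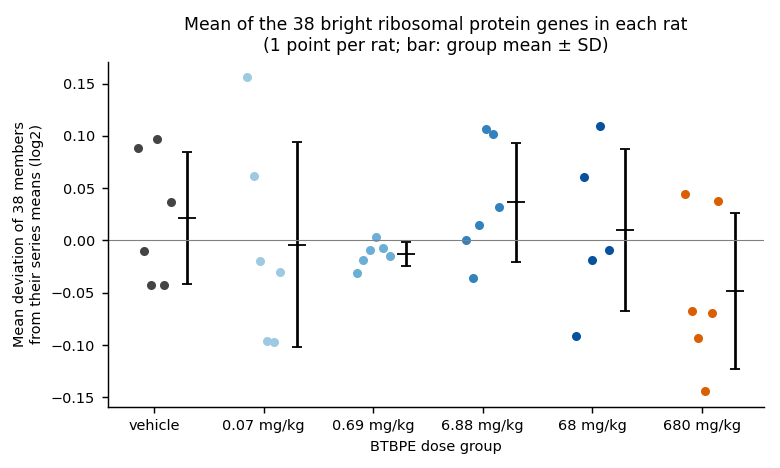
Mean deviation of the 38 bright ribosomal protein genes from their series means (log2, vertical axis) in each rat, by dose group (horizontal axis); each point is a rat, and the bar is the group mean ± SD. The groups overlap, the 6 rats at 0.69 mg/kg lie within -0.032 to 0.0032, and 4 of 6 rats at 680 mg/kg lie below 0.

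The nonmember gene most like the mean of all 48 members was Rack1 (r = 0.923, group means removed, 35 rats), the scaffold protein bound to the small subunit. Eef1g (0.847) and Eef1b2 (0.838), which recycle elongation factor 1A, came next. Timm8a1 (0.795), a mitochondrial import chaperone, Nhp2 (0.791), of the pseudouridylation complex, Phgdh (0.789), of serine synthesis, Psmg4 (0.782), a proteasome assembly factor, and Fkbp11 (0.774), a prolyl isomerase of the secretory pathway, completed the first 8. The most opposed genes, picked after their values were seen, were Tspan33 (-0.781), Apoa5 (-0.729), Agmo (-0.704) and Sds (-0.688), of which Sds breaks down serine. Of 14169 other genes, 239 had r above 0.5.

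Lists of related genes followed the members in part. Here and below, the 2 most distant rats are those farthest from the median of the measure set beside the family, chosen anew for each measure. Among translation factors and other TOP messages, 9 of 17 measured genes had r above 0.5 with a median of 0.506, Naca (0.675) and Eef2 (0.709) among them, and the list's mean tracked the mean of the 38 at r = 0.804 (Spearman 0.797; 0.798 without the 2 most distant rats, n = 33). Mitochondrial ribosomal proteins had 12 of 73 above 0.5 with a median of 0.304, and their mean had r = 0.606 with the mean of the 38 (Spearman 0.555; 0.504 without 2 rats). Ribosome biogenesis factors had 3 of 39 above 0.5 with a median of 0.293, and their mean had r = 0.471 (Spearman 0.375; 0.233 without 2 rats). Of the 15 measured regulators of the mTOR, Myc and stress pathways only Eif4ebp1, an mTOR target that restrains initiation, passed 0.5 (0.660), and the mean of that list had r = 0.325 (Spearman 0.236; 0.0896 without 2 rats). The list of translation factors overlaps the family in known function and includes Rack1, so its likeness is not independent of the choice of genes.

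Marker lists of the liver's cell types were set beside the family in the same way. Over the 35 rats the mean of the 38 had r = 0.158 with 8 hepatocyte markers, 0.0948 with 8 Kupffer cell and macrophage markers, 0.177 with 9 lymphocyte markers, -0.0421 with 7 endothelial, -0.131 with 4 cholangiocyte, 0.296 with 2 blood, 0.119 with 5 exocrine pancreas and -0.254 with 4 muscle markers. The mean of the 8 stellate and matrix markers had 0.398 (Spearman 0.492, and 0.50 without the 2 most distant rats). It was above the regulators' mean on each measure and above the biogenesis mean on the last 2. The single markers differed. Lum and Dcn, with the widest within-group SD of these markers (1.22 and 0.577), had r of 0.442 and 0.418 with the mean of the 38. Col3a1, Des, Col1a1, Col1a2 and Lrat had 0.249, 0.216, 0.205, 0.164 and 0.12, and Rgs5 had -0.378. The part of these markers in the shared variation was not tested. As a further measure, the 5S ribosomal RNA control probe set had r = 0.154.

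RNA integrity was read from control probe sets, since integrity numbers of single rats are not in the labels. A transcript probed at both ends gives a larger 3′ minus 5′ difference when its RNA is broken. The beta-actin difference ranged from 1.02 to 1.37 and the GAPDH difference from -0.078 to 0.19. Both moved with cell-type markers too: all 8 Kupffer cell and macrophage markers had a negative slope with an unadjusted p under 0.05 on each by limma. Cd163, C1qa, C1qb and the endothelial Lyve1 were called for beta-actin (limma adjusted p from 0.0122 to 0.0428), and integrity and cell makeup were not told apart. The mean of the 38 had r = -0.0609 with beta-actin (Spearman -0.109, and -0.0327 without the 2 most distant rats). With GAPDH it had r = -0.268 (Spearman -0.297, and -0.290 without 2). Taken as 3′ minus middle probe set, beta-actin gave r = 0.0127 and GAPDH gave r = -0.33 (Spearman -0.369, and -0.194 without 2). The hexokinase 3′ minus 5′ difference gave the mean of the 38 an r of -0.106. With the median of the array it had r = -0.284 and a Spearman correlation of -0.282. Without the 2 most distant rats r was -0.059.

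Tested gene by gene with dose group in the model, no member was called for either difference. For beta-actin limma called 0 of 48 members at an adjusted p under 0.05, where 0.348% of probe sets were called, and 3 members (6.25%) had an unadjusted p under 0.05 against 11.6% of probe sets. For GAPDH it called 0 of 48, where 0.254% of probe sets were called, and 4 (8.33%) had an unadjusted p under 0.05 against 15.9%. Of the 38 bright members 36 had a negative GAPDH slope, with a median of -0.32 against -0.020 over genes above 10. For beta-actin 22 of 38 were negative. Because bright members vary together within groups, the 36 negative slopes are not 36 independent observations.

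Rpl18 came closest to a call. Its slope was -0.079 ± 0.018 (SE) per within-group SD of the GAPDH difference (limma adjusted p = 0.0525), and 7 of 11 other settings took it past the threshold. For beta-actin its slope was -0.048 ± 0.021 (limma adjusted p = 0.373). Rps4y2 went the other way, by 0.152 ± 0.050 per SD for GAPDH (limma adjusted p = 0.128) and 0.136 ± 0.051 for beta-actin (adjusted p = 0.258).

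**Figure D4:**
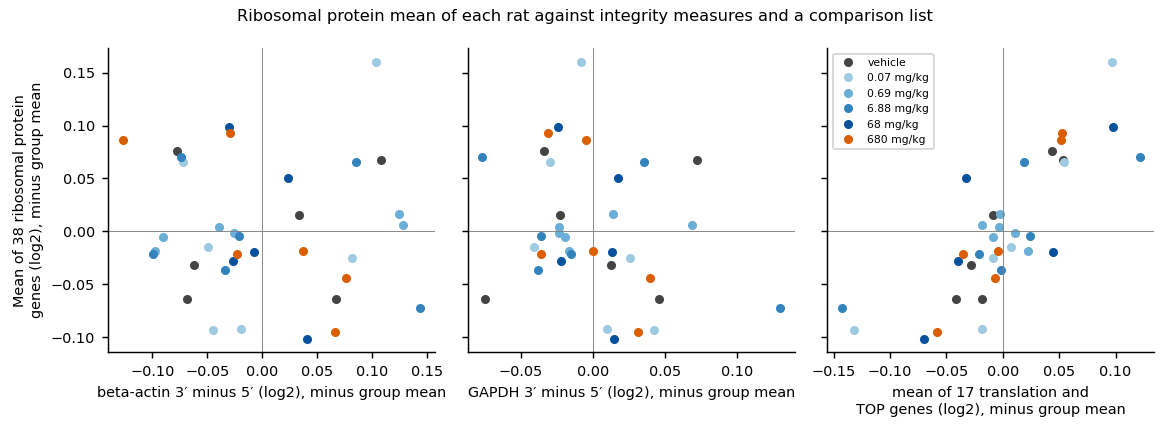
Mean of the 38 bright ribosomal protein genes in each rat (vertical axis, log2, group mean removed) against the beta-actin and GAPDH 3′ minus 5′ differences and the mean of 17 translation and TOP genes (horizontal axes, log2, group mean removed), 1 point per rat. The integrity panels show r of -0.0609 and -0.268, and the right panel r of 0.804.

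The dose comparisons asked whether BTBPE changed these transcripts. No member was called at any dose. At an adjusted p under 0.05 limma called 0 of 48 at 0.07 mg/kg (percent called over all 31042 probe sets, 0), 0 at 0.69 mg/kg (0 over all), 0 at 6.88 mg/kg (0 over all), 0 at 68 mg/kg (0 over all) and 0 at 680 mg/kg (0 over all). It also called 0 in the trend over dose rank (0 over all) and 0 in the F test over the 5 doses (0 over all). An analysis of variance without moderation called 0 in each as well.

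Unadjusted p under 0.05 was reached by 0 of 48 members at 0.07 mg/kg (3.64% of probe sets) and 0 at 0.69 mg/kg (3.16%). It was reached by 1 member at 6.88 mg/kg (4.63%), 1 at 68 mg/kg (3.88%) and 4 at 680 mg/kg (4.95%). The count at 680 mg/kg depended on the fit, from 2 with median-centred arrays to 10 without moderation, and on single libraries. It was 1 without vehicle replicate 4 or without replicate 3 or 4 of 680 mg/kg, 2 without replicate 2 of 680 mg/kg, 7 without vehicle replicate 3 or 5, and 10 without replicate 1 or 6 of 680 mg/kg. In the trend 0 members reached it (4.99%), and in the F test 2 did (3.85%), namely Rpl28 and Rpl35a. All doses are set against the same 6 vehicle rats, so shifts at different doses share any deviation of those rats.

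At 680 mg/kg the family stood slightly below vehicle as a whole. The median difference over the 48 members was -0.063 on the log2 scale against 0.0024 over all genes, with 45 members lower and 3 higher. Of the 38 bright members 37 were lower, Rps29 (0.0075) being the exception, whereas of 876 genes above 10 the split was 402 lower and 474 higher. The large and small subunits had medians of -0.062 and -0.066. Because bright members vary together within groups, these 37 are not 37 independent observations.

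Rpl35a, a large-subunit protein mutated in Diamond-Blackfan anaemia, had 11.46, 11.54 and 11.65 as lowest, median and highest in vehicle and 11.16, 11.43 and 11.55 at 680 mg/kg. All 6 dosed rats lay below the vehicle mean, replicates 3 and 4 being lowest, and the groups overlapped. The difference was -0.17 (95% interval -0.30 to -0.04), or 0.886-fold, with a limma unadjusted p of 0.0101 and adjusted p of 0.994. Rpl41, the smallest ribosomal protein, had 12.18, 12.35 and 12.46 in vehicle and 11.95, 12.17 and 12.42 at 680 mg/kg. Here 5 of 6 dosed rats lay below the vehicle mean, and the difference was -0.17 (-0.31 to -0.02; unadjusted p = 0.0234 by limma).

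Rps24, another Diamond-Blackfan anaemia gene, had 11.78, 11.87 and 11.98 in vehicle and 11.58, 11.69 and 11.96 at 680 mg/kg, a difference of -0.15 (-0.28 to -0.01; unadjusted p = 0.0346 by limma). Its second, dim probe set (mean 3.54) differed by 0.21 in the opposite direction. Rpl4 differed by -0.12 (-0.23 to -0.0039; unadjusted p = 0.0429 by limma). Each of these 4 had an adjusted p of 0.994. The lowest value of all members was that of Rps4y2, -0.19 (-0.54 to 0.16), whose groups overlapped. Rps13 at 0.12 (-0.07 to 0.31) and Rpl7l1 at 0.038 (-0.11 to 0.19) stood highest, and the shared probe set naming Rps13 differed by -0.069. A second Rpl7l1 probe set, with a mean of 8.42, differed by 0.128.

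The intervals bound what could have gone unseen. For Rplp0, often used as a reference gene, the interval at 680 mg/kg was -0.16 to 0.06 around -0.050, for Rps6 -0.20 to 0.0037 around -0.10, and for Rpsa -0.17 to 0.04 around -0.066. The other Rpsa probe sets gave -0.132 and -0.112. Of the 33 bright probe sets shared with other genes 32 were lower at 680 mg/kg, with a median of -0.072; the set naming Rplp1 differed by -0.13.

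The other doses showed smaller shifts in either direction. At 0.07 mg/kg the median over the 48 was -0.026 (10 higher, 38 lower; all genes 0.00098) and at 0.69 mg/kg -0.030 (5 higher, 43 lower; all genes -0.0050). At 6.88 mg/kg it was 0.015 with 33 higher and 15 lower (all genes -0.0054), and at 68 mg/kg -0.0093 with 18 higher and 30 lower (all genes 0.0031). The sign at 68 mg/kg depended on single rats: it was 0.015 without replicate 1 of that dose, 0.0060 without vehicle replicate 1 and 0.0034 without vehicle replicate 4.

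At 6.88 mg/kg the dim Rpl28 probe set had 2.73, 2.87 and 3.05 against 2.49, 2.61 and 2.88 in vehicle, a difference of 0.22 (0.04 to 0.40; limma unadjusted p = 0.0157, adjusted p = 0.999). The groups overlapped, and the shared bright probe set naming Rpl28 differed by 0.022. Rpl39l1 differed by 0.30 (-0.09 to 0.69), with 1 rat at 4.48 and the other five between 2.97 and 3.47. Rps4y2 differed by -0.30 (-0.65 to 0.05) and Rpl18 by -0.11 (-0.25 to 0.03). This group also had the highest mean GAPDH difference (0.061 against -0.0032 in vehicle), and with that difference in the model Rps4y2 stood at -0.52, Rpl18 at -3.3e-05 and the median of the 48 at 0.041. Rpl22, a protein that is not essential to the ribosome, was the highest bright member (0.071).

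At 68 mg/kg Rps27l was the one member whose groups did not overlap. Vehicle rats had 7.97, 8.01 and 8.16 as lowest, median and highest, and the 5 dosed rats had 7.93, 7.94, 7.86, 7.89 and 7.73. Among all probe sets 0.332% did not overlap at this dose, and at the other doses 0 of 48 members did so (0.164% at 0.07, 0.151% at 0.69, 0.2% at 6.88 and 0.187% at 680 mg/kg). The difference of -0.16 (-0.30 to -0.02; limma unadjusted p = 0.0228, adjusted p = 0.999) was not seen in that size at 680 mg/kg, where the vehicle and dosed means were 8.03 and 7.96, and the 2 doses were not tested against each other. Rpl39l1 (0.17) and Rps13 (0.16) were highest and Rpl3l (-0.096) second lowest at 68 mg/kg.

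At 0.69 mg/kg Rpl3l (-0.098) and Rpl23a (-0.082), a protein at the exit of the peptide tunnel, were lowest, and Rpl7l1 (0.045) and Rps4y2 (0.045) highest. At 0.07 mg/kg Rpl39l1 (-0.081) and Rps27l (-0.073) were lowest, and Rpl28 (0.15) and Rps13 (0.12) highest. The intervals of all 8 crossed 0. Over dose rank Rpl41 had the smallest p of the members (slope -0.024 per step, -0.048 to 0.00069; limma unadjusted p = 0.0565, adjusted p = 0.992).

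**Figure D5:**
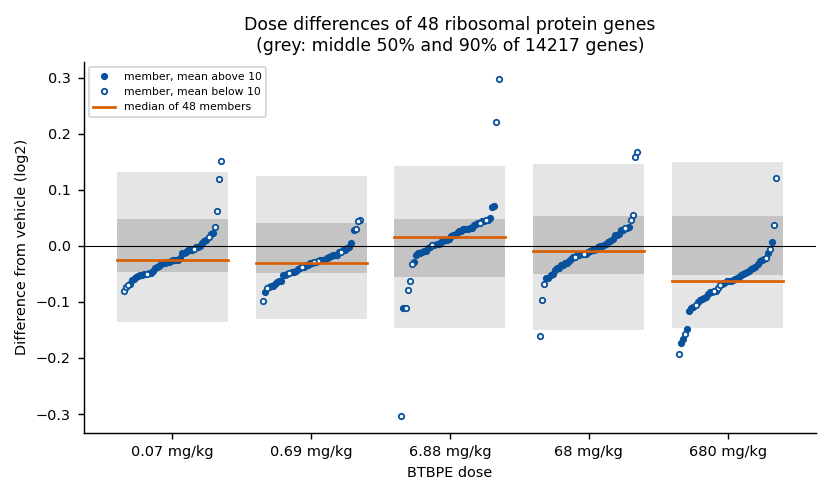
Difference from vehicle (log2, vertical axis) of each of the 48 ribosomal protein genes at each BTBPE dose (horizontal axis), filled for means above 10 and open for means below, with the median in orange and the middle 50% and 90% of 14217 genes in grey. The median is -0.063 at 680 mg/kg and between -0.030 and 0.015 at the other doses.

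Related lists at 680 mg/kg were set beside the family. Translation factors and other TOP messages had 15 of 17 genes lower, with a median of -0.064, and 0 were called. That list was mostly lower at the other doses too, with 14 of 17 at 0.07 mg/kg (median -0.057), 17 at 0.69 mg/kg (-0.062), 12 at 6.88 mg/kg (-0.012) and 15 at 68 mg/kg (-0.039). Ribosome biogenesis factors split 20 higher and 19 lower with a median of 0.0030, and 0 were called. Mitochondrial ribosomal proteins had 28 higher and 45 lower (median -0.011), and regulators 6 higher and 9 lower (median -0.040), with 0 called in either list. By limma at an unadjusted p under 0.05 the counts at 680 mg/kg were 2 of 17, 2 of 39, 4 of 73 and 2 of 15 in that order. Over all probe sets the share was 4.95%. Of the 8 stellate and matrix markers 6 were lower at 680 mg/kg (median -0.094) and 6 at 0.69 mg/kg (-0.15), with medians of -0.0100, -0.012 and 0.039 at 0.07, 6.88 and 68 mg/kg. The 8 Kupffer cell and macrophage markers were all lower at 680 mg/kg (median -0.099), 68 mg/kg (-0.32), 0.69 mg/kg (-0.089) and 0.07 mg/kg (-0.19), and 7 of 8 were lower at 6.88 mg/kg (-0.095), so their largest shift was at 68 mg/kg, where the family's median was -0.0093. By limma 0 markers of either list were called at any dose, with 1 stellate marker at 0.69 mg/kg and 1 Kupffer marker at 68 mg/kg at an unadjusted p under 0.05, and their part in the family's shift was not tested.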

How the data were processed

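The authors deposited log2 RMA expression values per probe set, made with the affy package per the submitters' processing notes; no source used here gives their versions, and base 2 follows RMA's convention. RMA's quantile step would reduce a shift of most transcripts. Values of 31099 probe sets were used as deposited, 57 control sets were left out of testing, and no filter was applied. Array medians lay between 4.71 and 4.79, and the number of arrays limits the precision. Genes were named from the platform annotation (20826 probe sets with 1 symbol, 436 with several, 9780 with none; 46 of 48 members matched a RefSeq identifier).

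Group contrasts, a dose-rank trend, an F test and slopes on the 3′ minus 5′ differences (dose group kept in the model) were fitted to 35 arrays with limma 3.58.1 in R 4.3.3. Benjamini-Hochberg adjustment ran over 31042 probe sets at 0.05. This replaced the submitters' named R/maanova test. The fits were tested on simulated data. Correlations used values with group means removed.

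Named members were fixed by rule: extremes of level, spread, dose difference and correlation, the smallest integrity p, and well-known members. The members and lists were chosen with earlier results of these data known. Nothing in the labels pairs rats across groups, and same-numbered arrays did not deviate together.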

Additional observations from a re-analysis of the deposited data

Results flagged for a closer look

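In 10 of 288 groups of a member's values (3.47%) the highest or lowest rat stood apart from its group by Dixon's 95% criterion; chance alone marks about 1 group in 20. Rpl39l1 had the widest gaps, with 4.478 in replicate 1 at 6.88 mg/kg (next 3.473) and 4.387 in replicate 5 at 68 mg/kg (next 3.126). In replicate 1 at 0.07 mg/kg, the rat with the highest ribosomal protein mean, Rpl5 was high at 12.51 (next 12.37) and the dim Rpl3l was high at 3.51 (next 3.338). In replicate 2 at 6.88 mg/kg, the array with the largest beta-actin and GAPDH 3′ minus 5′ differences, Rpl7 was low at 12.02 (next 12.19) and Rpl39 was low at 4.592 (next 4.892). Rpl3l was low at 3.10 in vehicle replicate 1. At 0.69 mg/kg Rpl37a was low at 12.02 in replicate 1 (next 12.08) and Rpl41 high at 12.45 in replicate 4 (next 12.37). Rpl23a was high at 11.81 in replicate 6 at 680 mg/kg (next 11.62).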

How the results depend on the processing

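Under the alternatives run, 0 members were called at any dose, in the trend, in the F test or for beta-actin, also without any single rat. For GAPDH 1 member, Rpl18, was called in place of 0 with a filter on dim probe sets, arrays centred on their medians, array weights, a robust prior with an intensity trend, 1 probe set per gene, the mean of all probe sets, or without the dose group; leaving out single rats gave 0 to 2, and 2 without vehicle replicate 1. The median pair correlation of 0.63 became 0.71 with the dim filter, 0.55 with the mean of all probe sets and 0.74 with bright members only, an alternative chosen after seeing the data; single rats moved it between 0.579 and 0.652, the lowest without replicate 1 at 0.07 mg/kg. Leaving out single rats, the members' median ranged from -0.054 to -0.0066 at 0.07 mg/kg, -0.045 to -0.015 at 0.69 mg/kg, 0.00012 to 0.031 at 6.88 mg/kg, -0.027 to 0.015 at 68 mg/kg and -0.084 to -0.043 at 680 mg/kg. The count of members at 680 mg/kg with an unadjusted p under 0.05, 4 as reported, ran from 2 (quantile normalisation again, median centring, or only vehicle and that dose) to 10 (no moderation, or an intensity trend with a robust prior). With the GAPDH difference as covariate the median at 6.88 mg/kg was 0.041. With the replicate number as a block 0 members were called and the median at 680 mg/kg was -0.063. Same-numbered arrays had a median correlation of deviations of -0.017 (8 of 85 pairs over 0.1), against 0.0025 for other pairs. No deviation shared by number was seen, which cannot show whether rats were paired.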
